A study of Homo sapiens with 18 samples.

Results

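The 10 genes described here encode 7 matrix metalloproteinases (MMP1, MMP2, MMP3, MMP9, MMP10, MMP14 and MMP28), both plasminogen activators (PLAU and PLAT) and the urokinase receptor (PLAUR). They were chosen by name, with knockout-against-WT results of these data known, from 19401 genes listed in at least 1 of 3 deposited tables. All 10 were in both RUNX1 tables, and 8 were in the CBFB table, which did not list MMP9 or PLAU.

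RNA was sequenced from MCF10A, a line of immortalized but non-tumorigenic epithelial cells of the human breast, in 18 samples of 5 groups. CBFB KO (3 samples) and its CBFB WT (3) made 1 experiment. RUNX1 KO1 (4), RUNX1 KO2 (4) and RUNX1 WT (4) made the other, and every group was untreated and grown in the same medium, with horse serum, insulin, EGF, hydrocortisone and cholera toxin. RUNX1 is a DNA-binding transcription factor and CBFB its non-DNA-binding partner, and the series was designed to identify the transcripts that depend on each. The knockouts were CRISPR-Cas9 clones grown from single cells, 1 clone for CBFB and 2 clones for RUNX1, so the targeted gene and the clone cannot be told apart within a knockout group.

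Matrix metalloproteinases are zinc-dependent enzymes, made as inactive proenzymes, that cut collagens, laminins and other proteins of the extracellular matrix. Urokinase (PLAU) and tissue plasminogen activator (PLAT) cut plasminogen to plasmin, which degrades fibrin and also activates several MMP proenzymes. PLAUR holds urokinase at the cell surface, and MMP14 sits in the membrane itself, where it activates pro-MMP2 together with the inhibitor TIMP2. In the breast these enzymes are known for the remodelling of ducts and basement membrane and for tumor invasion.

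The value used for each gene was the authors' mean normalized count over the knockout and the WT libraries of a table together. A level below is therefore that of the whole experiment, not that of knockout or WT cells. The tables carried no value per library, so no SD, confidence interval or test could be attached to any value, and every comparison is a description. Since the groups of a table were of equal size and no count is below 0, neither group mean could exceed 2 times the table mean, and that bound is given where it limits a gene. The tables listed 18526 (CBFB), 18517 (KO1) and 18117 (KO2) genes, and were normalized separately, so levels are set across tables only as stated. Why a gene is missing from a table is not known. KRT14, with a mean of 9515 in the KO1 table, was not listed in the KO2 table, though both hold RUNX1 WT libraries. Size factors, the depth of a library relative to the others of its table, ran from 0.657 to 1.18 for CBFB, from 0.921 to 1.10 for KO1 and from 0.562 to 1.29 for KO2. The means could not check the knockouts, because a clone can still transcribe a disrupted gene and both groups are pooled. RUNX1 itself had means of 1606, 922 and 839 in the CBFB, KO1 and KO2 tables, and CBFB had means of 897, 1058 and 931.

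The libraries carried the transcripts of mammary epithelium. Of 10 epithelial markers, 9 reached a mean of 10 in the CBFB and KO1 tables, as did 8 of the 9 listed in the KO2 table. The 3 with the highest mean over the tables were KRT5 (87894, 101688 and 95221), KRT17 (10527, 47912 and 68408) and KRT18 (14607, 13779 and 17998). KRT19 was low, between 0.478 and 2.05. Of 7 fibroblast markers only COL1A1 (284, 305 and 236) and PDGFRA (633, 554 and 466) reached 10, while DCN, PDGFRB and LUM stayed under 10. Of 6 immune and endothelial markers only CD68 (303, 183 and 161) did.

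Among the MMPs, 1 membrane-bound enzyme dominated and the collagenase and stromelysins were near the floor of the assay. MMP14, the membrane type 1 MMP, had mean normalized counts of 2758, 2653 and 2278 in the CBFB, KO1 and KO2 tables. MMP9 (gelatinase B), which cuts denatured collagen and type IV collagen, had means of 432 (KO1) and 382 (KO2). MMP28 (epilysin), a secreted MMP of epithelia, had means of 91.1, 236 and 268. MMP2 (gelatinase A), the enzyme that MMP14 activates, was the lowest of those that reached 10, at 44.7, 53.2 and 52.6. MMP14 thus exceeded each of the others in every table in which they were listed.

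**Figure D1:**
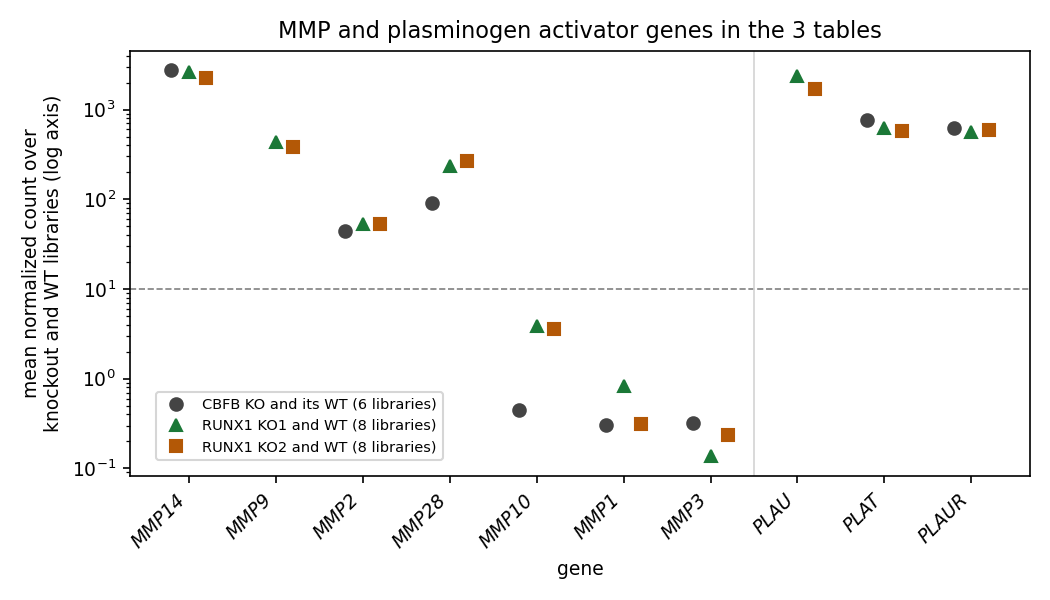
Mean normalized count of each of the 10 genes, on a log axis, in the CBFB table (circles), the KO1 table (triangles) and the KO2 table (squares); each point is 1 mean over all knockout and WT libraries of a table, so there are no error bars, and the dashed line marks a mean of 10. MMP10, MMP1 and MMP3 lie under the line in all 3 tables, and MMP9 and PLAU have no point for the CBFB table.

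Per kb of transcript, which allows genes of different length to be compared within a table, MMP14 had means of 739 (CBFB), 711 (KO1) and 610 (KO2). It made up 92.8%, 69.1% and 66.2% of the summed level per kb of the MMP members listed, and the CBFB share is over fewer genes because MMP9 was not listed there. MMP9 followed with 18.0% (KO1) and 17.7% (KO2), though MMP28 stood above it when the median transcript length was used. MMP28 contributed 5.63%, 11.3% and 14.3%. On the same scale MMP14 lay above 87.7%, 88.5% and 87.7% of the listed genes of the 3 tables, MMP28 above 38.6%, 57.1% and 62.0%, and MMP2 above 28.0%, 30.1% and 31.3%.

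PLAU, PLAT and PLAUR were all well above the low range. PLAU had mean normalized counts of 2346 (KO1) and 1693 (KO2), so no RUNX1 group averaged more than 4692 or 3387. PLAT had means of 770, 620 and 580 in the CBFB, KO1 and KO2 tables, and PLAUR had 619, 569 and 590. The latter 2 genes stood in the same range in all 3 tables.

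Per kb, the order of the 10 genes was the same in both RUNX1 tables, which share the RUNX1 WT libraries. In the KO1 table PLAU led with 883, followed by MMP14 (711), PLAUR (354), PLAT (229), MMP9 (185), MMP28 (116), MMP2 (14.2), MMP10 (2.19), MMP1 (0.424) and MMP3 (0.0673). In the KO2 table PLAU (637) and MMP14 (610) again led, followed by PLAUR (366), PLAT (215), MMP9 (163), MMP28 (132), MMP2 (14.1), MMP10 (2.06), MMP1 (0.158) and MMP3 (0.118). The CBFB table, without PLAU and MMP9, ran MMP14 (739), PLAUR (385), PLAT (284), MMP28 (44.8), MMP2 (12.0), MMP10 (0.256), MMP3 (0.159) and MMP1 (0.155). Whether neighbors in these orders differ beyond the spread of libraries could not be told. With the median instead of the longest transcript length, MMP14 came before PLAU and MMP28 before MMP9 in both RUNX1 tables. In the KO2 table PLAUR then also came before PLAU and MMP3 before MMP1.

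Part of the PLAU level may not be its own. Of the 50-base windows of the PLAU transcript, 518 (18.5%) also occur on the opposite strand in transcripts of C10orf55, which overlaps it, and whether reads were counted by strand is not given in the sources used here. C10orf55 had means of 658 (KO1) and 401 (KO2) and, like PLAU, was not listed in the CBFB table. For MMP9, 255 windows (11.1%) were shared with the antisense SLC12A5-AS1, which no table listed under that gene. For MMP1, 56 windows (2.92%) were shared with WTAPP1, which had means of 0.240 and 0.107 in the RUNX1 tables. MMP3 and MMP10 shared 59 windows with each other, 2.95% of those of MMP3 and 3.36% of those of MMP10, and 128 windows of MMP2 (2.6%) occur in AC007336.3. MMP14, MMP28, PLAUR and PLAT shared no window with another gene.

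Promoters are shown for the members for which a window was kept, because the series concerns a transcription factor whose binding motif is short and known. The windows were 250 bases before to 50 after each RefSeq start (GRCh38.p14, a later build than the hg19 of the deposited tables). Windows were kept for MMP10, MMP14, PLAU and PLAUR, 4 of the 10 members, with 2 starts for PLAU. The promoters of the other members were not searched, so nothing is said of their motifs. The bases before the start were searched for the RUNX motif (TGTGGT or TGCGGT, both strands), the AP-1 motif TGAGTCA (which reads TGACTCA on the other strand, both searched) and TATAAA on the gene's own strand. The lines below print 60 bases, 5′ to 3′ on the strand of the gene, with matches in capitals.
MMP10 promoter, chr11:102780629-102780688, minus strand, bases 60 to 1 before the start: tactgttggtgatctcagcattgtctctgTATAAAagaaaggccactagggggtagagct
MMP14 promoter, chr14:22836381-22836440, plus strand, bases 204 to 145 before the start: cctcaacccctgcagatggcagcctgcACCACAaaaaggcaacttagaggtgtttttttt
PLAU promoter, first start, chr10:73910550-73910609, plus strand, bases 60 to 1 before the start: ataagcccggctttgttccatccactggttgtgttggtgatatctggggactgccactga
PLAU promoter, second start, chr10:73911072-73911131, plus strand, bases 60 to 1 before the start: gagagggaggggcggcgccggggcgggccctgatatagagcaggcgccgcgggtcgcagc
PLAUR promoter, chr19:43670323-43670382, minus strand, bases 213 to 154 before the start: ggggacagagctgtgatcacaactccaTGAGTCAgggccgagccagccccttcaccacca

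MMP10 held TATAAA starting 31 bases before the start, at the usual distance of a TATA box, and 6.8% of all 35116 promoter windows held that word. The MMP14 window held the RUNX motif, written ACCACA because it lies on the opposite strand, 177 bases before the start, and 16.3% of all windows held a RUNX motif. PLAUR held the AP-1 motif 186 bases before the start, a word found in 4.2% of windows. Neither PLAU window held a match to any of the 3 motifs. A match describes letters in these windows and says nothing of binding in MCF10A cells.

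MMP1 (interstitial collagenase), MMP3 (stromelysin-1) and MMP10 (stromelysin-2) were the 3 members with a mean under 10 in every table. Genes under 10 made up 26.0%, 26.4% and 27.0% of the CBFB, KO1 and KO2 tables. Added over all libraries of a table, MMP1 came to 1.83 (CBFB), 6.69 (KO1) and 2.49 (KO2) normalized reads. MMP3 came to 1.92, 1.09 and 1.91, and its mean in the KO1 table, 0.136, was exactly that of a gene with 1 read in 1 library. No group average of MMP1 could exceed 0.611, 1.67 or 0.623 normalized counts, and none of MMP3 could exceed 0.641, 0.271 or 0.477. These bounds hold for knockout and WT alike, whichever group the reads came from.

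MMP10 stood apart from its neighbors in the RUNX1 experiment. Its mean was 0.451 (CBFB), 3.85 (KO1) and 3.62 (KO2), or 2.70, 30.8 and 28.9 normalized reads over all libraries. No RUNX1 group averaged more than 7.70 (KO1 table) or 7.23 (KO2 table), and no CBFB group more than 0.901. After scaling, the RUNX1 means were 10.0 (KO1) and 10.2 (KO2) times the CBFB mean. The CBFB side of that ratio rests on under 3 normalized reads, and the ratio cannot tell apart the experiment, its WT cells and the gene knocked out.

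These 3 genes are neighbors on chromosome 11, within a run of 9 MMP genes in the RefSeq order MMP7, MMP20, MMP27, MMP8, MMP10, MMP1, MMP3, MMP12 and MMP13. Each of the tables listed 5 of the 9, and all 5 were under 10, with the highest at 2.38 (MMP13, CBFB table), 3.85 (MMP10, KO1 table) and 3.62 (MMP10, KO2 table). MMP20, MMP27, MMP8 and MMP12 were not listed in any table, which need not mean that they had no reads. The genes on either side were far higher. YAP1, BIRC3, BIRC2 and TMEM123 on the MMP7 side had means between 531 and 4560 over the 3 tables, and DCUN1D5 and DYNC2H1 beyond MMP13 had means between 168 and 2090. Of the 14 MMP genes elsewhere in the genome, 11, 12 and 11 were listed in the CBFB, KO1 and KO2 tables, and 2, 3 and 3 of those were under 10.

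**Figure D2:**
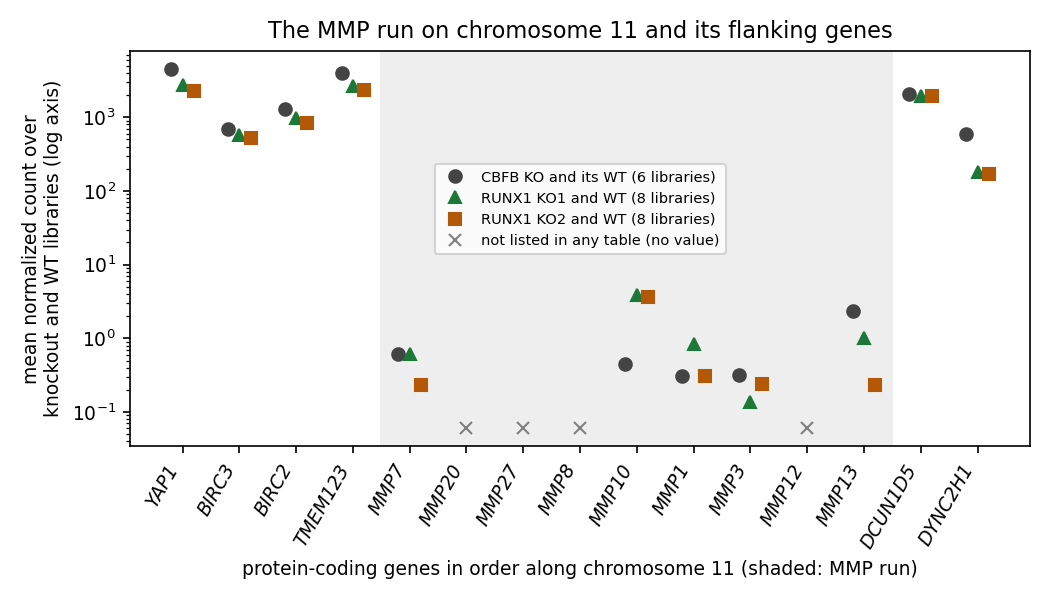
Mean normalized count, on a log axis, of the protein-coding genes along the MMP run of chromosome 11 (shaded) and of its flanks, in gene order and not to distance, with 1 point per table and crosses at an arbitrary height for genes not listed in any table. The 5 listed MMP genes lie between 0.136 and 3.85 and the flanking genes between 168 and 4560.

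The clones KO1 and KO2 could be compared because their tables hold the same RUNX1 WT libraries. Of the libraries told apart by genes with a single read, whose means are equal to 6 decimals, 4 were paired between the tables without exception (69 of 69, 66 of 66, 72 of 72 and 58 of 58 genes), which is the number of RUNX1 WT samples. With WT in common, the difference of the table means depends on the clones, apart from the scale between the tables. The main scale was 1.07, the median ratio over the 10174 genes whose mean reached 100 in both. Of 13335 genes whose mean reached 10 in either table, 19 (0.142%) differed by 2-fold or more, 6 higher and 13 lower in the KO1 table, and none of the 7 members with such a mean was among them. A 2-fold line is strict here, since a common WT draws the means together.

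Among the 7 members with a mean of at least 10, PLAU differed most between the clones' tables. MMP1 and MMP3, with ratios of 2.50 and 0.530, rest on under 7 normalized reads in a table. The scaled ratio of the KO1 mean of PLAU to its KO2 mean was 1.29 (log2 0.37). It lay above 99.0% of the 13335 genes whose mean reached 10 in either table, and outside their central 95% (log2 -0.46 to 0.26). With the tables set on the scale of the shared libraries, for which the ratio was 1.31, KO1 exceeded KO2 by 1039 normalized counts. On that scale the ratio of the clones themselves is no smaller than that of the tables, since the same WT is in both. The ratio of the tables was 1.26 to 1.39 over all scalings tried. C10orf55, which overlaps PLAU, had a scaled ratio of 1.53, and its part in the PLAU value was not tested.

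The other 6 members with a mean of at least 10 lay within the central 95% of genes. MMP14 had a ratio of 1.08 (log2 0.12) and MMP9 1.05 (log2 0.07), so both were slightly higher in the KO1 table. PLAUR was lower in the KO1 table, with a ratio of 0.898 (log2 -0.16), as was MMP28 with 0.819 (log2 -0.29), below which lay 9.55% of genes. PLAT at 0.995 and MMP2 at 0.943 were not placed on either side, since their ratios crossed 1 under other scalings (0.975 to 1.07 and 0.924 to 1.01). MMP2 did so only without scaling, and was at 0.956 on the scale of the shared libraries. The median log2 ratio of the 7 members was -0.01, with 3 above 0 and 4 below, and without scaling 5 were above and 2 below. Urokinase and its receptor had ratios on opposite sides of 1 under every scaling, PLAUR at 0.880 to 0.965. A scaling moves both genes alike, so this says nothing of the spread between libraries.

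**Figure D3:**
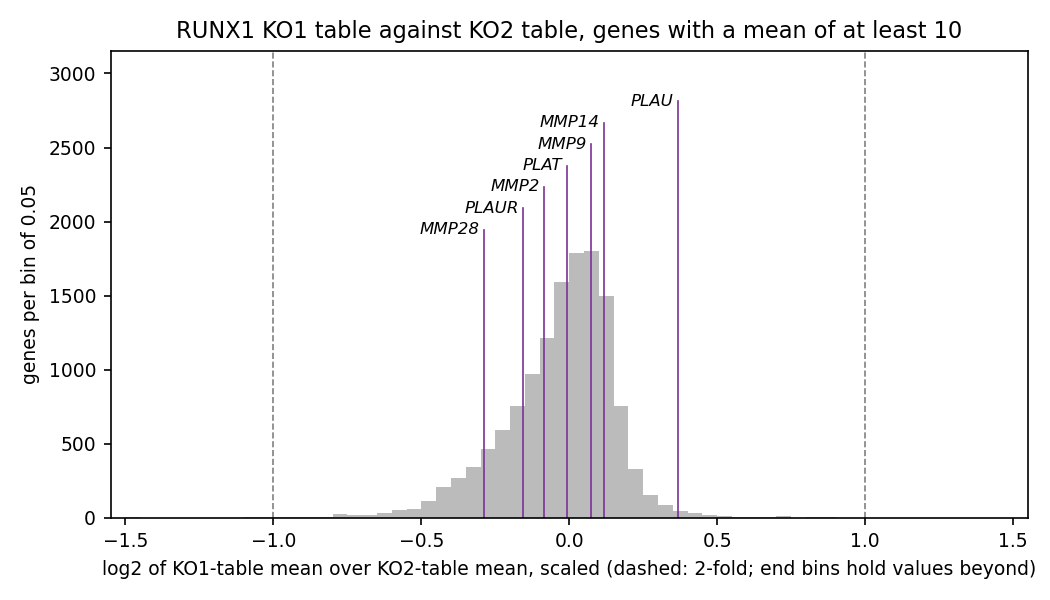
Histogram of the scaled log2 ratio of the KO1 table mean to the KO2 table mean for the 13335 genes that reached a mean of 10 in either table (bins of 0.05), with a line at each of the 7 members (line heights only separate the labels) and dashed lines at 2-fold. PLAU at 0.37 lies in the right tail, and the other 6 members lie between -0.29 and 0.12.

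Against the CBFB table, whose libraries are all different, MMP28 had the highest ratio of the members with a mean of at least 10. Its scaled mean was 3.04 (KO1) and 3.74 (KO2) times the CBFB mean, where the scales were the median ratios 0.853 and 0.787. Of all genes that reached a mean of 10, 890 of 13917 (6.40%) and 1216 of 13555 (8.97%) differed by 2-fold or more in these comparisons, and MMP28 was the 1 of 5 members to do so in each. No CBFB group averaged more than 182 normalized counts of MMP28. MMP2 had scaled ratios of 1.40 and 1.49, MMP14 1.13 and 1.05, PLAUR 1.08 and 1.21, and PLAT 0.945 and 0.958. Both ratios of a gene rest on the same CBFB libraries and partly on the same RUNX1 WT libraries, and the knocked-out gene, the clone and the experiment cannot be told apart. In these bulk samples fewer expressing cells and less RNA per cell cannot be told apart either.

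The other MMP genes were mostly low or not listed. Of 16 such genes, 10, 10 and 9 were listed in the CBFB, KO1 and KO2 tables, and 6, 5 and 4 reached a mean of 10. The highest were MMP17 (215, 336 and 326) and MMP15 (141, 217 and 241), both membrane-bound like MMP14, and MMP24 (111 and 139), another membrane type, which the KO2 table did not list. All 4 that reached 10 in the RUNX1 tables were lower in the KO1 table, with scaled ratios from 0.669 (MMP25) to 0.967 (MMP19). Without scaling MMP17 and MMP19 were slightly higher in the KO1 table (1.03 and 1.04). None of these 4 passed 2-fold between the RUNX1 tables. Scaled ratios to the CBFB mean (KO1, then KO2) were above 1 for MMP15 (1.80 and 2.17), MMP17 (1.83 and 1.92) and MMP25 (1.43 and 2.15). They were below 1 for MMP16 (0.452 and 0.532) and MMP19 (0.616 and 0.642), and MMP24 had 1.47 (KO1). MMP15, MMP16 and MMP25 thus each passed 2-fold in 1 of these comparisons.

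Inhibitors and partners of the MMPs ran from very high to very low levels. Of 10, 7 reached a mean of 10 in the CBFB table, and 8 of the 9 listed did so in each RUNX1 table. Of all genes listed, 26.0%, 26.4% and 27.0% stayed under 10 in the CBFB, KO1 and KO2 tables. TIMP4, listed only in the CBFB table, had a mean of 0.428, and A2M had means of 0.586, 0.722 and 0.961. The 3 genes with the highest means follow. BSG, a surface glycoprotein that induces MMPs in neighboring cells, had means of 10972, 12471 and 12884. CD44, a hyaluronan receptor that docks MMP9 and MMP14 at the membrane, had means of 9735, 7068 and 6068. TIMP1, the inhibitor that binds pro-MMP9, had means of 6034, 4665 and 5632. Per kb, TIMP1 was above MMP14 in all 3 tables, at 5510 against 739, 4260 against 711 and 5143 against 610.

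Genes named in the rest of this paragraph were picked after their values were seen. TIMP2, which bridges MMP14 and pro-MMP2, had means of 1073, 1307 and 1290. FURIN, the protease that activates MMP14, had means of 3885, 3327 and 2878, and its KO1 to KO2 ratio was 1.08, above 79.2% of genes. LCN2, which forms a complex with MMP9, had means of 3.57, 14.8 and 13.4. Of the 8 genes of this list that reached 10 in the RUNX1 tables, 3 had a ratio above 1 and 5 below (4 and 4 without scaling), from 0.771 (TIMP1) to 1.08, and none passed 2-fold.

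Of 12 further genes of the plasminogen system, 9, 12 and 12 were listed and 8, 9 and 9 reached a mean of 10. The most abundant were ANXA2, ENO1 and S100A10, listed here as binding sites of plasminogen. PLGRKT, listed as a binding site too, was far lower, with means of 285, 253 and 256. These are levels of total mRNA and do not show the protein at the cell surface. ANXA2 had means of 63790, 73066 and 75078, ENO1 had 61773, 57815 and 57815, and S100A10, the partner of ANXA2, had 17121, 20888 and 25835. ANXA2 and ENO1 have processed pseudogenes, so their counts may be shared with near-identical copies. PLG, plasminogen itself, which the liver makes, was not listed in the CBFB table and had means of 0.136 and 0.127 in the RUNX1 tables.

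Inhibitors of the plasminogen activators, named here after their values were seen, stood at unlike levels. SERPINA5 was low in every table, with means of 5.37, 7.55 and 5.64. SERPINE2 (protease nexin-1), which inhibits urokinase among other proteases, had means of 997, 705 and 569, and its KO1 to KO2 ratio was 1.15, above 95.0% of genes. SERPINB2 (PAI-2) was not listed in the CBFB table, had means of 299 and 293 in the RUNX1 tables and had a ratio of 0.947. S100A10 had a ratio of 0.753. Over the list, 3 of 9 ratios were above 1 and 6 below (5 and 4 without scaling), from 0.662 to 1.15, with a median log2 of -0.10, and none passed 2-fold. Among the epithelial markers, 3 of 8 ratios were above 1 and 5 below (6 and 2 without scaling), from 0.652 (KRT17) to 1.25 (ITGA6), with a median log2 of -0.02.

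**Figure D4:**
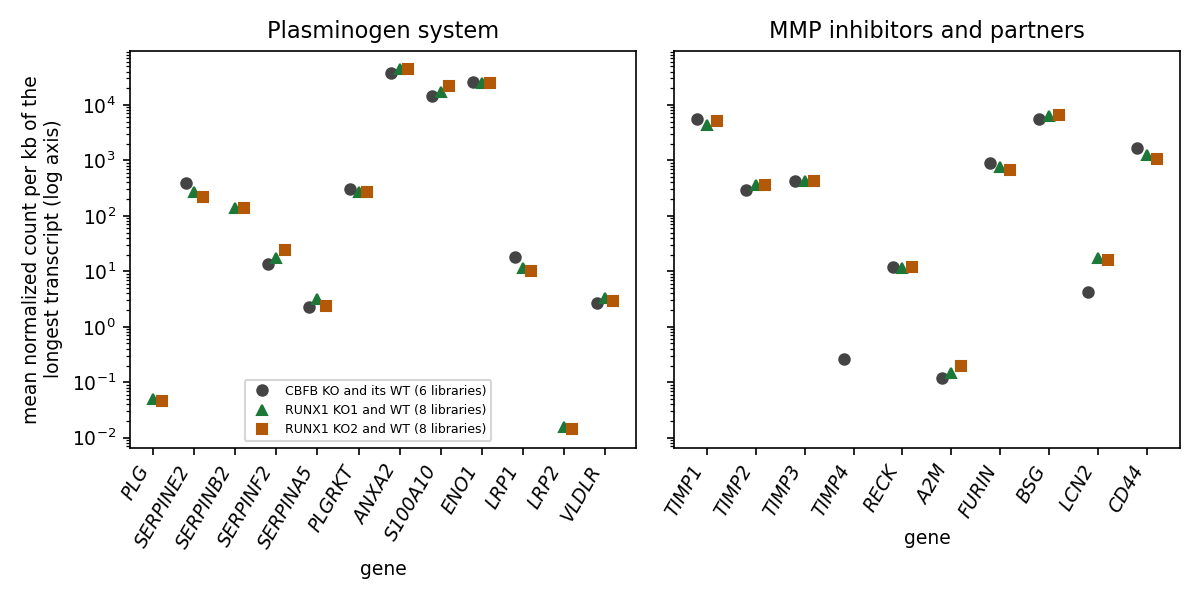
Mean normalized count per kb of the longest transcript, on a log axis, for the genes of the plasminogen system (left) and the MMP inhibitors and partners (right) in the CBFB table (circles), the KO1 table (triangles) and the KO2 table (squares); a gene without a point was not listed in that table. ANXA2, ENO1 and S100A10 are the highest on the left and BSG and TIMP1 on the right, while PLG, LRP2, TIMP4 and A2M lie under 1.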

How the data were processed

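RNA-seq libraries of MCF10A cells were compared as the labels group them. Per the labels, the authors used Trimmomatic, STAR and DESeq2 with build hg19. The read counter and the annotation are not given in the sources used here. The labels name an mRNA kit, the study's methods removal of ribosomal RNA. The 3 deposited tables give the authors' mean normalized count over knockout and WT libraries, treated as a signal, together with the authors' log2 fold changes, their SEs, test statistics and p-values, which are the authors' own comparison and were not used. The tables hold 0 columns of values per library. Members and lists were chosen with earlier results of these data known. Some list genes are not reported here.

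Tables were joined by Entrez ID in Python 3.11.15 with pandas 2.3.3 and numpy 2.4.6, and drawn with matplotlib 3.10.9. Size factors were read from genes with 1 read in 1 library. Means were divided by the longest GENCODE 29 transcript, which covered 91.5% to 92.1% of genes whose mean reached 10. Tables were scaled by the median ratio of genes whose mean reached 100. Scripts were tested on simulated data. Names, gene order and promoters came from RefSeq (GRCh38.p14). All members were named, with the 3 genes of highest mean in each other list. The immune and endothelial markers were the exception, where only CD68 was named. Other genes were named after their values were seen. Alternatives were other scalings, folds, filters and transcript lengths. Replicates share a label, and separate cultures are not stated.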

Additional observations from a re-analysis of the deposited data

How the results depend on the processing

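Ratios between the KO1 and KO2 tables moved by less than 0.159 (log2) in 35 of 35 values under other scalings. Those of MMP2 and PLAT nevertheless crossed 1. The yardstick was the SD across genes, in the absence of replicate error. Each scaling moves all members by the same amount, so the 35 values are not independent and measure no error. The count of genes past 2-fold, 19, was 186 past 1.5-fold, 4 past 3-fold, 553 without a filter on low means and 3 among means of at least 100. Against the CBFB table, 1216 genes past 2-fold in the KO2 table became 1858 without scaling. Members with a mean under 1, not 10, were 3, 2 and 2. Of 56 places by level per kb, 11 moved, all with the median transcript length, by which MMP14 came before PLAU. Of 40 percentiles, 24 moved with the genes ranked. No paired analysis was possible because the tables hold no value per library, and for the same reason no library could be left out. The scaling over the shared libraries, the folds against the CBFB table and the count under 1 were chosen after seeing the data. Depth limits MMP1, MMP3 and MMP10.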
